A study of Mus musculus with 1 sample.

Results

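The SOX transcription factors examined here are the 10 members *Sox9*, *Sox8*, *Sox10*, *Sox4*, *Sox11*, *Sox12*, *Sox5*, *Sox13*, *Sox17* and *Sox18*, taken by symbol from the 22631 features of the matrix, which holds 20 genes of the SOX family in all. The data are single-cell RNA counts of 1 control library of mouse fetal testes, which were dissociated and captured in droplets with the 10x Genomics Chromium 3′ chemistry, in which every captured molecule carries a unique molecular index (UMI). The label gives WT as genotype, E14.5 as stage and a pool of 12 controls, whereas the methods describe the controls as *Nr5a1* L2/L2 fetuses, which carry the floxed allele without the *AMH-cre* transgene or the YFP reporter, on a mixed C57BL/6 and 129/SvPass background, and the study's text also names an earlier embryonic day. With 1 pooled library there was no replicate and no test was made. The mutant library was not analysed here.

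SOX proteins bind the minor groove of DNA through an HMG box and bend it, and are sorted into groups by the sequence of that box. SoxE proteins (SOX8, SOX9 and SOX10) drive testis, cartilage and neural crest development. In the fetal gonad SRY, acting with NR5A1, switches on *Sox9* in the precursors of Sertoli cells, the somatic cells that enclose the germ cells, and SOX9 then keeps its own expression up and activates Sertoli genes such as *Amh*, which encodes anti-Müllerian hormone. SoxC proteins (SOX4, SOX11 and SOX12) act in progenitors of many tissues, SoxD proteins (SOX5, SOX6 and SOX13) lack a transactivation domain and work with partners, and SoxF proteins (SOX7, SOX17 and SOX18) act in vessels.

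The HMG boxes of the SoxE trio are shown because they are what the 3 proteins have most in common. They are the coding strand of the GENCODE transcripts on GRCm38 (the assembly also called mm10), each of 210 bases for 70 residues, with the 46 bases that the 3 genes do not share in capitals. The box of *Sox9* lies in exons 1 and 2 of the transcript Sox9-201 (chr11:112782903-112783905, plus strand), that of *Sox8* in exons 1 and 2 of Sox8-201 (chr17:25568964-25570222, minus strand) and that of *Sox10* in exons 3 and 4 of Sox10-203 (chr15:79159307-79163401, minus strand), each span including an intron that the printed sequence leaves out.
Sox9: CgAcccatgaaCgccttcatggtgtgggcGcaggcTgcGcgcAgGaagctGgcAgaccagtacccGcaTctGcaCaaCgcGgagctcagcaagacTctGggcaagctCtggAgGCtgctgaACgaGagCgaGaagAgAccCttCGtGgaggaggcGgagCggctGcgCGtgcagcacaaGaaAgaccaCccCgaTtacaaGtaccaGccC
Sox8: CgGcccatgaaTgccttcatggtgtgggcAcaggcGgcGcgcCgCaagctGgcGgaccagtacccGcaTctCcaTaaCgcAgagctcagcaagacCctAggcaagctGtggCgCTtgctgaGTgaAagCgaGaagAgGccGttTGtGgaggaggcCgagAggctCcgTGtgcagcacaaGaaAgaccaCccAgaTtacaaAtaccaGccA
Sox10: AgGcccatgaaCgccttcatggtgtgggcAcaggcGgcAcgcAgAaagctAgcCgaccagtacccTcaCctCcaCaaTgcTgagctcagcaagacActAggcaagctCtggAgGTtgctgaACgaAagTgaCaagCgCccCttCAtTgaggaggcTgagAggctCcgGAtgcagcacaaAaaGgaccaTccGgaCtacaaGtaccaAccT
Translated, the boxes of SOX9 and SOX8 shared 69 of 70 residues, those of SOX9 and SOX10 67, and those of SOX8 and SOX10 66, while their bases were 86.2%, 83.3% and 82.4% the same. Over the 9 members whose boxes were compared, the 6 pairs within a group shared 63 to 69 of 70 residues and the 30 pairs between groups 35 to 51.

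The library held 5421 barcodes and 72595083 UMIs, and 3813 cells with 54512408 UMIs (median 12032 per cell) passed the filters. They were clustered without any SOX gene among the variable genes, so that no member shaped the clusters, and clusters were named from marker lists with no SOX gene in them. The classes were Sertoli-like (860 cells, median 14278 UMIs), interstitial-like (1404 cells, 9337 UMIs), peritubular myoid-like (512 cells, 11597.5 UMIs), Leydig-like (304 cells, 15805 UMIs), germ-like (251 cells, 35917 UMIs), coelomic epithelium-like (158 cells, 16068 UMIs), perivascular-like (59 cells, 11578 UMIs), endothelial-like (42 cells, 12768.5 UMIs) and immune-like (36 cells, 14818.5 UMIs). A further 155 cells of 2 clusters got no name, and 32 barcodes rich in hemoglobin RNA were set apart. No cluster was named from the markers of rete testis or of Schwann cells. Of the 5 rete testis markers, 3 were in at least 25% of Sertoli-like cells. Together the 5 were at 179.9 CPM there, against 16.8 CPM in endothelial-like to 498.5 CPM in peritubular myoid-like cells. The paper assigned a cluster with control cells to rete testis, and the part of such cells in the Sertoli-like class was not tested. The 11 Sertoli markers, from which the Sertoli-like class was named, summed to 10191 CPM in it, against 48.0 to 474.1 CPM in the other 8 classes. Since the markers gave the name, the sum describes the class and does not test it. None of the 11 was at 0 there, nor in germ-like and interstitial-like cells.

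Levels are given in CPM, the UMIs of a gene in a class per 1000000 UMIs of all genes in it. Ranges in parentheses are exact 95% intervals, Poisson for levels and Clopper-Pearson for shares of cells, and take in counting error alone. To compare shares across classes of different depth, each cell was thinned to 5000 UMIs, which left out 17 Sertoli-like and 66 interstitial-like cells and up to 11 cells of each other class. All 10 members had a UMI in at least 10 kept cells, from 43 cells for *Sox17* to 3485 for *Sox4*.

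SoxE genes were concentrated in Sertoli-like cells, and *Sox17* and *Sox18* were highest in endothelial-like cells. SoxC genes were spread over most classes, with *Sox11* low in Sertoli-like, immune-like and germ-like cells. The SoxD members *Sox5* and *Sox13* were highest in different classes, coelomic epithelium-like and endothelial-like cells, with intervals that overlapped those of the next class. Against all other named cells together, and with 5 CPM added to both levels, 3 of the 10 members (*Sox9*, *Sox8* and *Sox10*) were at least 2-fold higher in Sertoli-like cells, where 7.18% of the 15046 genes measured were, and 1 (*Sox11*) was at least 2-fold lower, where 8.59% of genes were. The median log2 ratio was 0.44 over the members and -0.07 over all genes. *Sox13* (0.93) and *Sox17* (-0.98) lay next to the limit, and the count of higher members became 4 under 2 of the alternatives and that of lower members 2 or 3 under 6. The shares of all genes above are those of the main setting, and none is given for the alternatives.

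**Figure D1:**
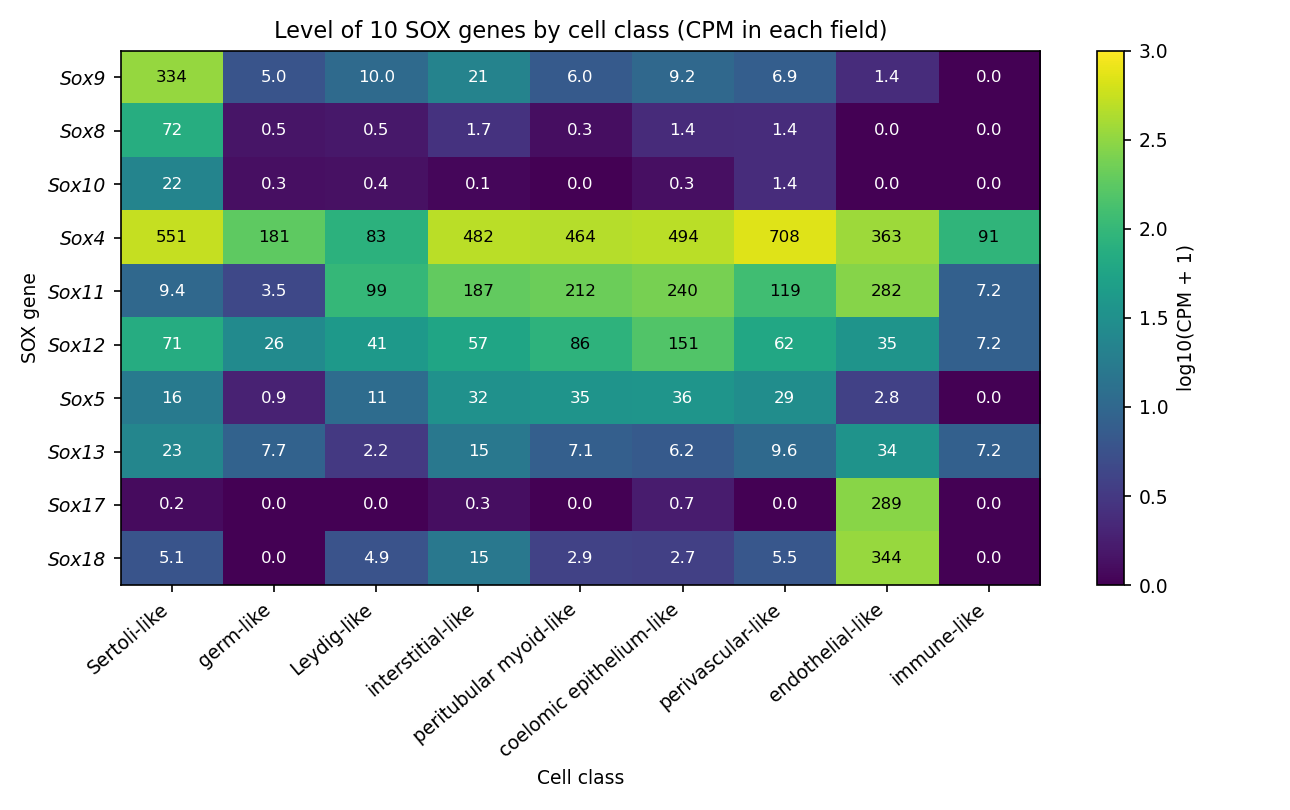
Level of the 10 SOX genes (rows) in 9 cell classes (columns) of the control library. The number in each field is the level in CPM and the color is log10(CPM + 1). *Sox9*, *Sox8* and *Sox10* are brightest in the Sertoli-like column (333.7, 72.4 and 21.8 CPM) and *Sox17* and *Sox18* in the endothelial-like column (289.0 and 343.5 CPM).

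*Sox9* (ENSMUSG00000000567; chromosome 11, 112782224 to 112787760), the SoxE gene on which testis formation depends, had 4294 UMIs in Sertoli-like cells, or 333.7 CPM (323.8 to 343.9). These were 90.2% (89.4 to 91.1) of its UMIs in named classes. The next level was 21.0 CPM (18.6 to 23.5) in interstitial-like cells, followed by Leydig-like (9.97 CPM), coelomic epithelium-like (9.23 CPM), perivascular-like (6.86 CPM), peritubular myoid-like (6.04 CPM), germ-like (4.95 CPM) and endothelial-like cells (1.40 CPM), and immune-like cells had no UMI of it. From the Leydig-like level downwards, no neighbours in this order had intervals apart.

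*Sox8* (ENSMUSG00000024176; chromosome 17, 25565892 to 25570686), which acts beside *Sox9* in keeping Sertoli cells, stood at 72.4 CPM (67.9 to 77.2) in Sertoli-like cells. Its level was between 0 and 1.72 CPM in the other 8 classes, and 96.1% (94.7 to 97.2) of its UMIs in named classes came from Sertoli-like cells. *Sox10* (ENSMUSG00000033006; chromosome 15, 79154908 to 79165240), best known as a regulator of Schwann cells and melanocytes, stood at 21.8 CPM (19.3 to 24.5) there and at 0 to 1.37 CPM elsewhere. Sertoli-like cells gave 280 of its 289 UMIs in named classes. Peritubular myoid-like cells had no UMI in 512 cells, for which the exact interval of the share of cells with a UMI reaches 0.718%. Its Sertoli-like UMIs lay in 218 of 860 cells. The 5 markers of Schwann and neural crest cells that are reported summed to 39.5 CPM in Sertoli-like cells, where *Erbb3* alone was at 33.7 CPM. Their sum was 45.3 CPM in perivascular-like cells. The part of Schwann or other neural crest cells in the *Sox10* level was not tested.

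At 5000 UMIs per cell, *Sox9* was found in 73.7% (70.6 to 76.6) of the 843 Sertoli-like cells left, *Sox8* in 28.1% (25.1 to 31.3) and *Sox10* in 10.1% (8.13 to 12.3). Germ-like cells, taken as a class without these genes and with a median depth of 35917 UMIs against 14278, had shares of 3.27% (1.42 to 6.33), 1.22% (0.253 to 3.54) and 0.408% (0.0103 to 2.25) at the same thinned depth. The Sertoli-like shares of *Sox9* and *Sox8* had intervals apart from those of every other class, and that of *Sox10* from all but the classes with the fewest cells, endothelial-like (0 of 42) and immune-like (0 of 33), whose intervals reached 8.41% and 10.6%. Unthinned, the Sertoli-like shares were 94.1%, 58.4% and 25.3%.

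**Figure D2:**
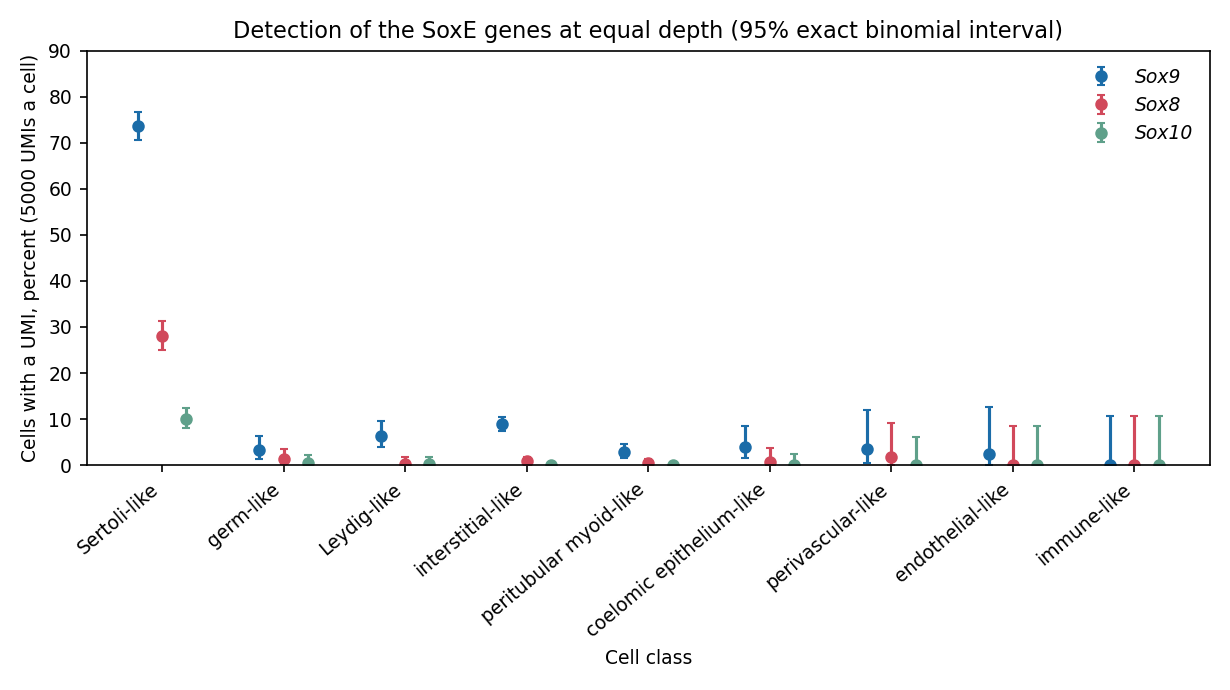
Percent of cells with at least 1 UMI of *Sox9*, *Sox8* or *Sox10* in each class after thinning every cell to 5000 UMIs, with exact 95% binomial intervals. Sertoli-like cells have the highest share of each gene (73.7%, 28.1% and 10.1%), with a *Sox10* interval that overlaps those of endothelial-like and immune-like cells. Interstitial-like cells have the second share of *Sox9*, 8.89%, with an interval apart only from those of Sertoli-like, germ-like and peritubular myoid-like cells.

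Whether the SoxE genes are found in the same Sertoli cells was examined in the 843 thinned cells. *Sox9* and *Sox8* were found together in 182 cells, or 21.6% (18.9 to 24.5), against 175 cells from the product of the 2 shares. *Sox9* and *Sox10* were found together in 67 cells where the product gave 62.6, and *Sox8* and *Sox10* in 25 where it gave 23.9. Sorted into all combinations, 393 cells had *Sox9* alone, 161 *Sox9* with *Sox8*, 46 *Sox9* with *Sox10*, 51 *Sox8* alone, 14 *Sox10* alone, 4 *Sox8* with *Sox10*, and 21 all 3 genes. No SoxE gene was found in 153 cells, or 18.2% (15.6 to 20.9), against 17.0% from the product. Each of the 8 counts had the product of the shares inside its interval, which takes the product as fixed although both come from the same cells. *Sox8* was found in 29.3% (25.8 to 33.1) of cells with *Sox9* and 24.8% (19.2 to 31.0) of those without. *Sox10* was found in 10.8% (8.46 to 13.5) and 8.11% (4.88 to 12.5) of them, and in 10.6% with and 9.90% without *Sox8*. All these intervals overlapped within their pair, so that at this depth no excess or lack of joint detection was detectable.

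**Figure D3:**
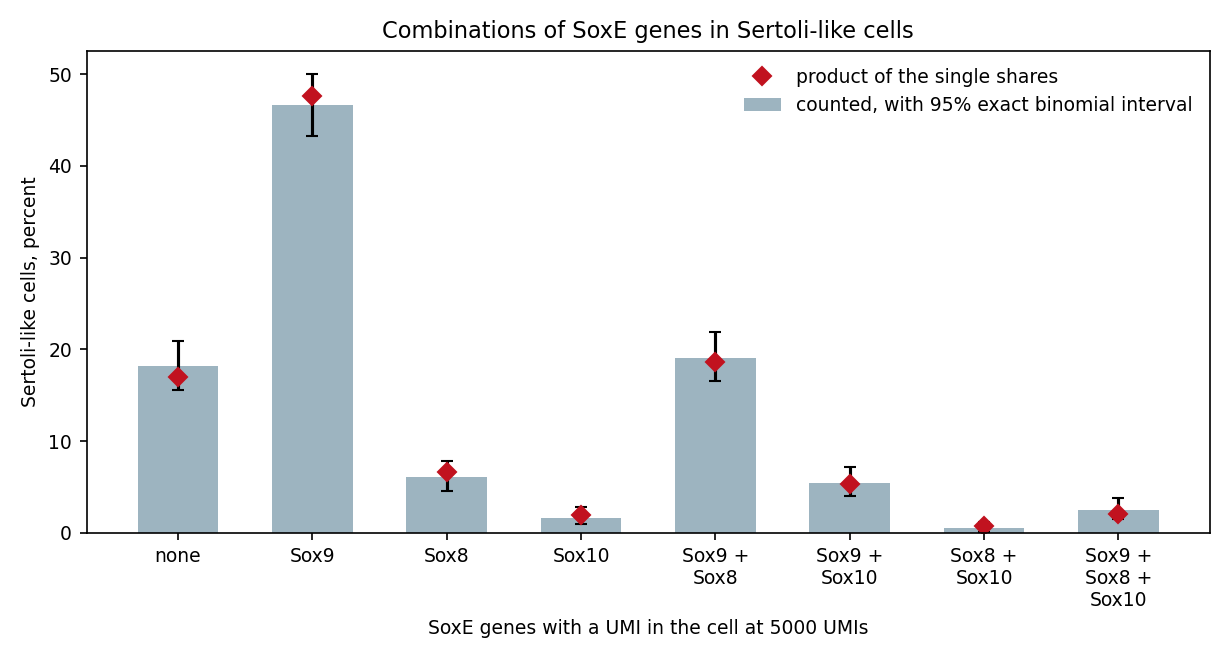
Percent of the 843 Sertoli-like cells, thinned to 5000 UMIs, with each combination of *Sox9*, *Sox8* and *Sox10*. Bars are counted shares with exact 95% binomial intervals and diamonds the products of the single shares, and every diamond lies inside its interval, for example 18.6% against 19.1% for *Sox9* with *Sox8*.

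Detection followed depth within Sertoli-like cells. Between the shallowest and the deepest of 5 equal groups (172 cells each, median 10296 and 20841.5 UMIs), the share with a *Sox9* UMI went from 89.0% (83.3 to 93.2) to 98.8% (95.9 to 99.9), that of *Sox8* from 39.5% (32.2 to 47.3) to 69.8% (62.3 to 76.5) and that of *Sox10* from 19.2% (13.6 to 25.9) to 31.4% (24.6 to 38.9), where the intervals of *Sox10* overlapped. The level of *Sox9* went the other way, from 389.3 CPM (359.0 to 421.4) to 307.9 CPM (290.6 to 325.9), while those of *Sox8* (64.5 and 66.6 CPM) and *Sox10* (24.9 and 18.1 CPM) had intervals that overlapped.

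**Figure D4:**
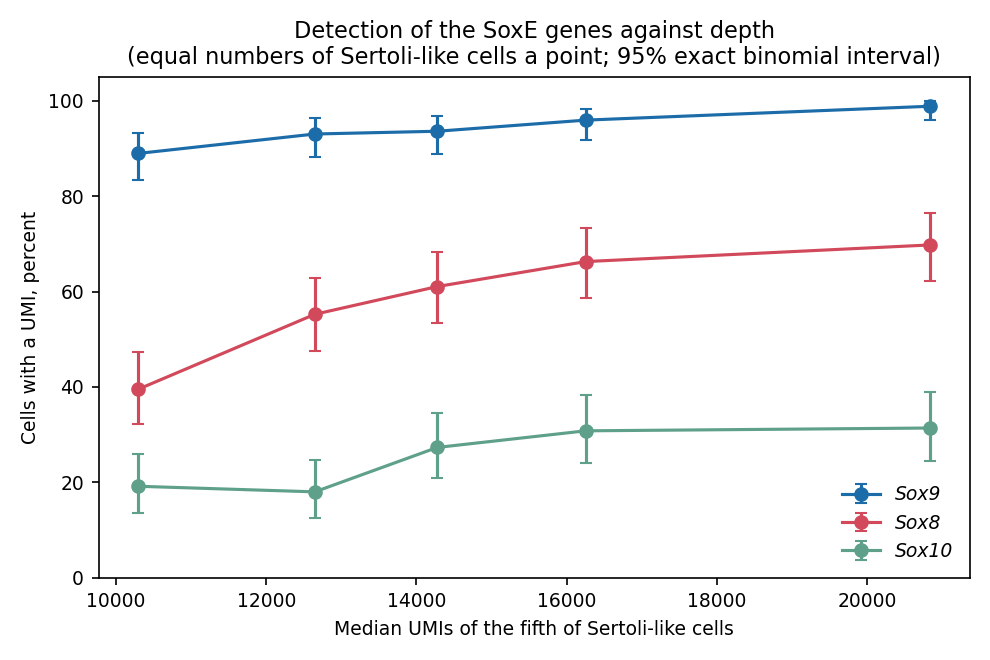
Percent of Sertoli-like cells with at least 1 UMI of each SoxE gene, without thinning, against the median UMIs of 5 depth groups of 172 cells, with exact 95% binomial intervals. All 3 shares are higher in the deepest group than in the shallowest, with *Sox9* reaching 98.8%.

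Of the 860 Sertoli-like cells, 51 (5.93%) had no *Sox9* UMI, whereas 17.9 such cells (2.08%) would be drawn if every cell had the level of the class and its own depth. For *Sox8* the cells without a UMI were 358 against 309 drawn, for *Sox10* 642 against 625, and for *Sox12* 340 against 315. In thinned Sertoli-like cells the variance of the UMI count was 1.49 times the mean for *Sox9* and 1.59 times for *Sox4*. It was 1.16 times for *Sox8* and *Sox10*, 1.02 times for *Sox12* and 1.21 times for *Sox11*, where a value of 1 is that of counting alone. The means were 1.69 UMIs for *Sox9*, 2.84 for *Sox4*, 0.355 for *Sox8*, 0.114 for *Sox10*, 0.370 for *Sox12* and 0.0297 for *Sox11*. At equal relative spread between cells this ratio is larger for a larger mean, so it does not rank the genes by their spread.

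Thinned Sertoli-like cells with a *Sox9* UMI (621) and without (222) were set side by side, as a description, since chance in drawing UMIs also decides on which side a cell falls. *Sox8* was at 75.4 CPM in the first and 58.6 CPM in the second, *Sox10* at 23.5 and 20.7 CPM, and *Sox4* at 565.9 and 576.6 CPM, and no member other than *Sox9* had intervals apart. Of the listed regulators and targets described below, *Wt1* (292.1 and 228.8 CPM), *Cst9* (2068 and 1923 CPM) and *Erbb3* (38.3 and 18.9 CPM) were higher beside *Sox9*, and *Pdgfa*, a growth factor gene (421.6 and 539.6 CPM), was lower, with intervals apart. All other genes of the lists had intervals that overlapped, among them *Amh* at 1989 and 1966 CPM. The share of all genes with intervals apart was not counted, and the intervals take in counting error alone.

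Among phases assigned from cell cycle genes, *Sox9* was at 371.3 CPM (356.2 to 386.8) in the 470 Sertoli-like cells of G1, 309.1 CPM (290.1 to 329.2) in the 203 of S and 290.5 CPM (273.0 to 308.7) in the 187 of G2M. *Sox4* showed the same order of G1 above the other phases, with 582.1 CPM against 518.5 CPM in S and 525.1 CPM in G2M. *Sox8* (72.7, 79.2 and 65.9 CPM) and *Sox12* (73.4, 79.5 and 59.2 CPM) were lowest in G2M, but only for *Sox12* did the intervals of S and G2M not overlap. The median depth was 13096.5 UMIs in G1, 15521 in S and 18648 in G2M, and the part of depth in these differences was not tested. At a resolution of 1.2 the Sertoli-like cells split into 433 and 427 cells, with *Mki67*, a proliferation marker, at 183.3 and 62.3 CPM. There *Sox9* was at 344.7 and 319.1 CPM and *Sox10* at 21.1 and 22.6 CPM with intervals that overlapped, while *Sox4* (524.1 and 586.3 CPM) had intervals apart.

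Outside Sertoli-like cells, *Sox9* was read in 292 UMIs of 215 interstitial-like cells. At 5000 UMIs its share there was 8.89% (7.42 to 10.6), above that of germ-like (3.27%) and peritubular myoid-like cells (2.79%; 1.54 to 4.64), at median depths of 9337, 35917 and 11597.5 UMIs. In Sertoli-like cells 0.169 *Sox9* UMIs were read per *Amh* UMI. In interstitial-like cells the ratio was 2.15 (292 to 136 UMIs), in Leydig-like 2.50 (55 to 22) and in coelomic epithelium-like 2.45 (27 to 11). It was 0.774 in peritubular myoid-like and 0.422 in germ-like cells. Against *Aard*, a gene among the 11 Sertoli markers, *Sox9* had ratios closer together, 0.137 in Sertoli-like and 0.643 in interstitial-like cells. The *Aard* ratio was 0.640 in Leydig-like, 0.370 in coelomic epithelium-like, 0.360 in peritubular myoid-like and 0.265 in germ-like cells. The ratio of *Sox9* to *Ptgds* was 0.162 in Sertoli-like and 1.44 in interstitial-like cells, and that of *Sox8* to *Amh* 0.0366 and 0.176. Summed over the 11 Sertoli markers, the level in interstitial-like cells was 93.7 CPM. With each cell classed by itself, the interstitial-like *Sox9* level was 16.3 CPM (14.28 to 18.55), against 21.0 CPM (18.62 to 23.51) in the main setting. The part of free RNA and of doublets in these *Sox9* UMIs was not tested. By cluster, *Sox9* was highest in the largest interstitial-like cluster (856 cells, led by *Colec11* and *Adamts5*), at 25.5 CPM (22.1 to 29.2), against 14.9 and 14.5 CPM in the clusters of 347 and 201 cells. Within Leydig-like cells it was at 17.5 CPM (12.7 to 23.5) in the 183 cells led by *Nppc* and *Vsnl1* and at 3.66 CPM (1.83 to 6.54) in the 121 cells led by *Cyp11a1*, the enzyme that starts steroid synthesis.

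Of the 155 unnamed cells, 66 formed a shallow cluster (median 3148.5 UMIs) led by red cell genes such as *Car2* and *Klf1*, in which the Sertoli markers also had a mean log2 ratio of 1.12 against all other cells. *Sox9* was at 131.4 CPM (95.1 to 177.0) there, *Sox8* at 24.4 CPM (10.6 to 48.2) and *Sox10* at 12.2 CPM (3.33 to 31.3), and no *Sox11* UMI was read. The other 89 unnamed cells, with *Gdf10* among their leading genes, had *Sox9* at 9.52 CPM (4.11 to 18.8) and *Sox11* at 267.7 CPM (233.9 to 305.1), and neither *Sox8* nor *Sox10*.

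The genes known to act before, with and after SOX9 were counted from fixed lists in the same comparison. There, 7.18% of the 15046 genes measured were at least 2-fold higher in Sertoli-like cells and 8.59% at least 2-fold lower. The lists were chosen with earlier results of these data known, so their counts describe and do not test. Of 8 upstream regulators, *Sry* had no UMI in any barcode, and of the 7 measured, *Wt1* (273.0 against 63.6 CPM, log2 ratio 2.02) and *Gata4* (168.6 against 55.9 CPM, 1.51), both transcription factors of the gonad, were at least 2-fold higher in Sertoli-like cells. *Nr5a1*, the orphan receptor floxed in this line, was at 74.1 against 43.8 CPM (0.70). None was lower. Only *Gata4* and *Map3k4* were highest in Sertoli-like cells when classes were taken singly. *Wt1* reached 353.5 CPM and *Cbx2* 21.9 CPM (Sertoli-like 13.5) in coelomic epithelium-like cells, and *Zfpm2* 86.2 CPM (Sertoli-like 55.0) in peritubular myoid-like cells. *Nr5a1* reached 225.3 CPM and *Gadd45g* 199.5 CPM (Sertoli-like 71.6) in Leydig-like cells. Of the 5 genes of feedback loops with SOX9, *Ptgds*, the prostaglandin D synthase (2060 against 14.0 CPM), and *Dmrt1* (36.3 against 6.93 CPM) were higher. *Fgfr2* was lower (3.96 against 23.6 CPM), and its ligand *Fgf9* stood at 13.7 against 5.87 CPM (0.78), with 66.3 CPM in coelomic epithelium-like cells.

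Of 10 targets of SOX9 in Sertoli cells, 9 were at least 2-fold higher, with a median log2 ratio of 4.45 over the list. Of all genes measured, 7.18% were higher and 8.59% lower by that fold. *Amh* was at 1978 against 8.38 CPM (7.21), *Col9a3*, a collagen chain, at 737.9 against 5.22 CPM (6.18), and *Cyp26b1*, which degrades retinoic acid, at 91.1 against 35.2 CPM (1.26). In Leydig-like cells taken alone, however, *Cyp26b1* was at 241.4 CPM, above the Sertoli-like level. It was among the 10 leading genes of the Leydig-like cluster led by *Nppc* and not of that led by *Cyp11a1*. Its level in each of these clusters is not given here. *Cst9* and *Dhh* of this list are also among the markers that named the class. *Hapln1* was the exception, at 0.700 against 10.2 CPM. Of the 5 reported targets of SOXE proteins in neural crest derivatives, *Erbb3*, a receptor of Schwann cells (33.7 against 3.34 CPM), was higher and none was lower. Of 4 measured cartilage targets, *Col9a1* was higher (6.14 against 0.377 CPM). Of 6 genes of the ovarian pathway, *Wnt4* (12.0 against 148.7 CPM), *Rspo1* (3.11 against 27.1 CPM) and *Lef1* (0.466 against 16.2 CPM) were lower and none was higher. *Foxl2* had 14 UMIs in the named classes together, and *Fst* was at 0.233 against 3.49 CPM (-0.70).

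The HMG boxes of *Sox4* and *Sox11* are shown because these close relatives differed in where they were read. Each lies in the transcript's exon 1 on the minus strand, at chr13:28952632-28952841 for *Sox4* (Sox4-201) and at chr12:27342049-27342258 for *Sox11* (Sox11-201). Capitals mark the 19 of 210 bases in which they differ.
Sox4: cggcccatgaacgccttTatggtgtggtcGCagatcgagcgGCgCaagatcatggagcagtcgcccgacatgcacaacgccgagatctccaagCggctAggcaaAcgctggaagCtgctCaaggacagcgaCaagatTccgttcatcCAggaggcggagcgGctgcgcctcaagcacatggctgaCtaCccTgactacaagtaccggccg
Sox11: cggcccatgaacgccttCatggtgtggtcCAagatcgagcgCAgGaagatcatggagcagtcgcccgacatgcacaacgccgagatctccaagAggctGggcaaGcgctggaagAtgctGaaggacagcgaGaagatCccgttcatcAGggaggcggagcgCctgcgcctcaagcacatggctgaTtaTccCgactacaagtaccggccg
The boxes of SOX4 and SOX11 shared 66 of 70 residues.

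*Sox4* (ENSMUSG00000076431; chromosome 13, 28948919 to 28953713), a factor of progenitor cells, was read in every class. It was highest in perivascular-like cells, at 708.3 CPM (648.5 to 772.1), followed by Sertoli-like cells at 550.8 CPM (538.1 to 563.8). Coelomic epithelium-like (493.7 CPM), interstitial-like (482.5 CPM) and peritubular myoid-like cells (463.8 CPM) came next, with neighbours whose intervals overlapped, and endothelial-like cells stood at 363.0 CPM (320.2 to 409.9). Germ-like cells at 181.2 CPM, immune-like at 90.6 CPM and Leydig-like at 82.8 CPM (75.4 to 90.8) were lowest. At 5000 UMIs, 89.8% (87.6 to 91.8) of Sertoli-like and 28.9% (23.9 to 34.4) of Leydig-like cells had a UMI. Both Leydig-like clusters were low, at 96.8 CPM (85.02 to 109.8) in the cells led by *Nppc* and 71.1 CPM (61.9 to 81.3) in those led by *Cyp11a1*. The first rank rests on 59 perivascular-like cells. That class held 163 cells with outliers taken at 5 deviations, 170 at a resolution of 1.2 and 210 with each cell classed by itself. Its *Sox4* level was not computed under these settings. The interstitial-like *Sox4* level was then 451.3, 454.5 and 456.6 CPM, below its main interval (471.0 to 494.2).

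*Sox11* (ENSMUSG00000063632; chromosome 12, 27334264 to 27342574), whose box is set beside that of *Sox4* above, had another order of classes. It was at 282.0 CPM (244.5 to 323.7) in endothelial-like, 239.7 CPM (222.3 to 258.1) in coelomic epithelium-like, 211.5 CPM (200.7 to 222.7) in peritubular myoid-like and 187.0 CPM (179.9 to 194.3) in interstitial-like cells, where neighbours overlapped except the latter pair. Perivascular-like (119.4 CPM) and Leydig-like cells (98.6 CPM) were lower, and immune-like (7.25 CPM) and germ-like cells (3.46 CPM) were lowest. Sertoli-like cells had 121 UMIs, or 9.40 CPM (7.80 to 11.2), against 140.8 CPM in all other named cells, a log2 ratio of -3.34. The thinned share in Sertoli-like cells, 2.61% (1.64 to 3.93), had an interval that overlapped those of germ-like (1.63%; 0.447 to 4.13) and of the 33 immune-like cells (3.03%; 0.0767 to 15.8), at median depths of 14278, 35917 and 14818.5 UMIs. Whether these UMIs came from free RNA or from expression was not tested. Without the removal of doublets the Sertoli-like level was 17.0 CPM. The pooled Leydig-like level covered a split, since *Sox11* was at 184.5 CPM (168.0 to 202.0) in the cluster led by *Nppc* and at 26.9 CPM (21.4 to 33.5) in that led by *Cyp11a1*.

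*Sox12* (ENSMUSG00000051817; chromosome 2, 152393611 to 152398063), the third SoxC gene, was highest in coelomic epithelium-like cells, at 150.8 CPM (137.0 to 165.5), where 58.0% (49.7 to 66.0) of thinned cells had a UMI. Peritubular myoid-like cells followed at 85.9 CPM (79.0 to 93.1) and Sertoli-like cells at 71.0 CPM (66.4 to 75.7), with intervals apart. The lowest levels were 26.1 CPM in germ-like and 7.25 CPM in immune-like cells. The thinned share of Sertoli-like cells was 30.5% (27.4 to 33.7), against 0 of 33 in immune-like cells. In Sertoli-like cells *Sox12* and *Sox9* were found together in 190 cells, where the product of the shares gave 189.

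**Figure D5:**
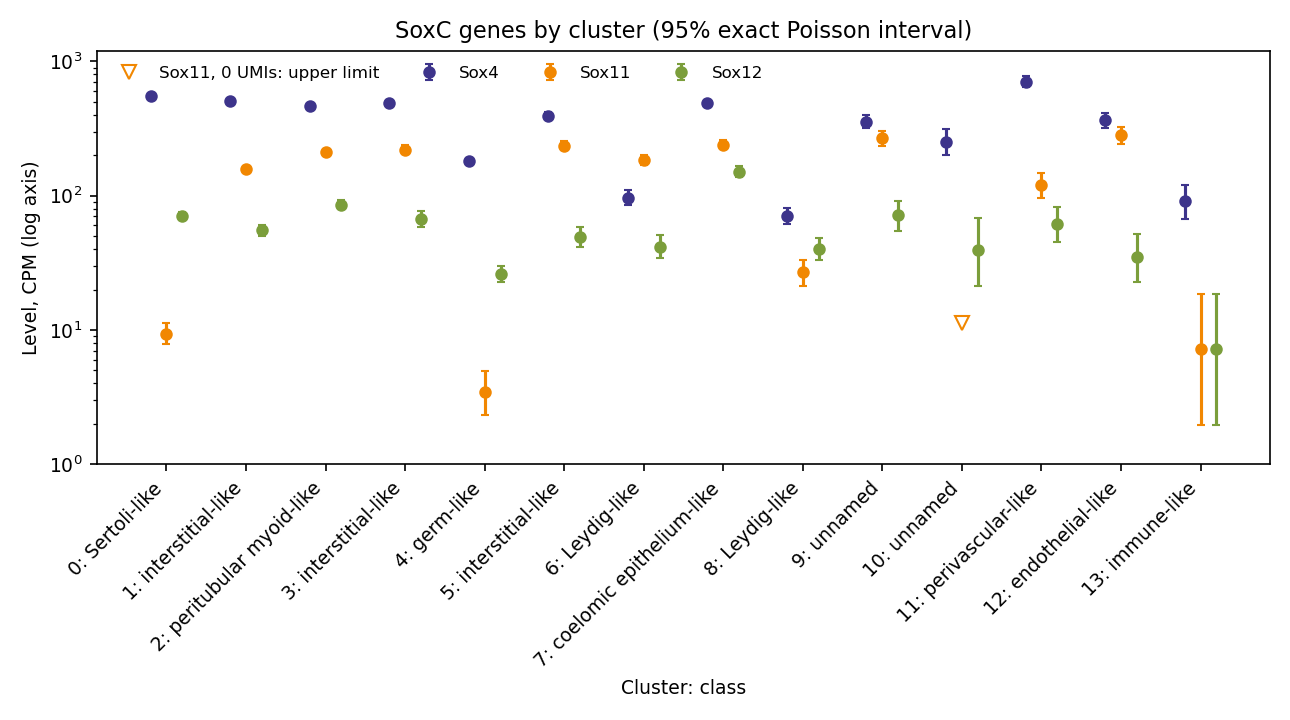
Level of *Sox4*, *Sox11* and *Sox12* in each of the 14 clusters on a log axis in CPM, with exact 95% Poisson intervals, and an open triangle for the upper limit where no UMI was read. *Sox11* falls to 9.40 CPM in the Sertoli-like, 7.25 CPM in the immune-like and 3.46 CPM in the germ-like cluster. Its levels in the Leydig-like clusters 6 and 8 are 184.5 and 26.9 CPM.

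*Sox5* (ENSMUSG00000041540; chromosome 6, 143828425 to 144781977), a SoxD gene that works with SOX9 in cartilage, was at 35.6 CPM (29.1 to 43.1) in coelomic epithelium-like, 34.9 CPM (30.6 to 39.6) in peritubular myoid-like, 31.9 CPM (28.97 to 34.98) in interstitial-like and 28.8 CPM (17.8 to 44.1) in perivascular-like cells, which did not differ beyond their intervals. Sertoli-like cells stood at 15.8 CPM (13.7 to 18.1), below the interstitial-like level with intervals apart. Leydig-like cells followed at 10.5 CPM, and the level was at most 2.79 CPM in endothelial-like, germ-like and immune-like cells. Thinned, *Sox5* was found in 7.83% (6.11 to 9.85) of Sertoli-like and in 0 of 245 germ-like cells.

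*Sox13* (ENSMUSG00000070643; chromosome 1, 133382303 to 133424377), the other SoxD member, was at 33.5 CPM (21.5 to 49.9) in endothelial-like and 23.0 CPM (20.5 to 25.8) in Sertoli-like cells, whose intervals overlapped. Interstitial-like cells came next at 14.8 CPM (12.8 to 17.0), apart from the Sertoli-like interval, and Leydig-like cells were lowest at 2.18 CPM. Its log2 ratio in Sertoli-like cells was 0.93. The thinned share was 10.7% (8.67 to 13.0) of Sertoli-like and 0.664% (0.0806 to 2.38) of Leydig-like cells, at median depths of 14278 and 15805 UMIs. Joint detection of *Sox13* with *Sox9* was 72 cells against 66.3 from the product, and with *Sox8* 32 cells against 25.3. Each product lay inside the interval of the joint share, which takes the product as fixed. *Sox13* was found in 11.6% of cells with and 8.11% without *Sox9*, and in 13.5% with and 9.57% without *Sox8*. The intervals of each pair overlapped, so no excess was detectable. *Sox6*, a SoxD gene outside the member list, was highest in coelomic epithelium-like cells at 36.6 CPM (29.98 to 44.2), followed by Sertoli-like at 23.3 CPM (20.7 to 26.1) and peritubular myoid-like cells at 16.8 CPM (13.8 to 20.2), each apart from the next. Against all other named cells together (8.28 CPM), *Sox6* was at least 2-fold higher in Sertoli-like cells, with a log2 ratio of 1.09.

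*Sox17* (ENSMUSG00000025902; chromosome 1, 4490931 to 4497354), a factor of arterial endothelium, was read mainly in endothelial-like cells. These gave 207 of its 216 UMIs in named classes, a level of 289.0 CPM (251.0 to 331.2), while every other class was at or below 0.684 CPM. Germ-like, Leydig-like, peritubular myoid-like, perivascular-like and immune-like cells had no UMI, and Sertoli-like cells had 3. *Sox7*, a SoxF gene that is no member, had the same distribution, with 81 of 85 UMIs in endothelial-like cells (113.1 CPM; 89.8 to 140.6).

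*Sox18* (ENSMUSG00000046470; chromosome 2, 181669836 to 181671640), which acts in lymphatic and other vessels, was also highest in endothelial-like cells (343.5 CPM; 301.9 to 389.2), where 41 of 42 cells had a UMI, but these held 42.6% (38.6 to 46.8) of its UMIs in named classes. Interstitial-like cells held 207 UMIs in 159 cells, a level of 14.9 CPM (12.9 to 17.0), and Sertoli-like cells 65 UMIs at 5.05 CPM (3.90 to 6.44). At 5000 UMIs the shares were 6.65% (5.38 to 8.12) in interstitial-like and 2.25% (1.36 to 3.50) in Sertoli-like cells. Germ-like cells had no UMI in 251 cells, for which the exact interval reaches 1.46%, at a median depth of 35917 UMIs. The ratio of *Sox18* to *Sox17* UMIs was 1.19 in endothelial-like and 51.8 in interstitial-like cells (207 to 4), and that of *Sox18* to *Cldn5*, a tight junction gene of endothelium, was 0.452 and 104 (207 to 2). *Cdh5*, vascular cadherin, had 171 UMIs in interstitial-like cells. The 8 endothelial markers together were at 44.4 CPM there, with none at 0, against 5052 CPM in endothelial-like cells, and the part of free RNA and of doublets in the *Sox18* UMIs was not tested. By cluster, *Sox18* was at 17.4 CPM (14.7 to 20.6) and 15.6 CPM (11.3 to 21.1) in the interstitial-like clusters of 856 and 201 cells and at 7.60 CPM (4.87 to 11.3) in that of 347 cells. When each cell was classed by itself, the endothelial-like class took in more cells, and *Sox17* and *Sox18* fell to 145.9 and 178.0 CPM in it. The interstitial-like *Sox18* level then also fell, to 11.6 CPM (9.90 to 13.5), below its interval in the main setting.

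Of the 8 genes listed as endothelial companions of the SoxF factors, *Cdh5* (2.487 against 21.99 CPM), *Kdr* (2.41 against 16.0 CPM) and *Cldn5* (0.0777 against 14.8 CPM) were at least 2-fold lower in Sertoli-like cells and none was higher. Over all genes measured, 8.59% were at least 2-fold lower. *Cdh5*, *Kdr*, *Cldn5*, *Pecam1* and *Tie1* also served as markers of the endothelial-like class.

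Of the remaining SOX genes of the matrix, *Sox2* and *Sox3* had most of their UMIs in germ-like cells. *Sox2*, a pluripotency factor, had 545 of its 557 UMIs of named classes in germ-like cells (62.8 CPM; 57.6 to 68.3), and *Sox3* 68 of 75 (7.83 CPM). *Sox15* was at 5.18 CPM (3.78 to 6.94) and *Sox30*, which acts in later spermatogenesis, at 2.53 CPM (1.59 to 3.84) in germ-like cells, each with an interval that overlapped that of the next class. *Sox1* and *Sry* had no UMI in the 5421 barcodes, and *Sox14* and *Sox21* had 5 and 2.

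Counted per thinned cell, the median number of the 10 members with a UMI was 3 in Sertoli-like and endothelial-like cells, 2 in interstitial-like, peritubular myoid-like, coelomic epithelium-like and perivascular-like cells, 1 in germ-like and Leydig-like cells and 0 in immune-like cells. The most in any cell was 6.

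Over the 9 classes, the genes whose log2(CPM + 5) was most like that of each member were named from 5911 candidates, as a description over classes that share 1 library. For *Sox9* they were *Gstm2* (Pearson r 0.981), *Arpc1a* (0.976) and *Slf2* (0.971), and for *Sox8* *Nt5e* (0.996), *Cst9* (0.995) and *Mt3* (0.994). *Sox10* had *Nt5e* (0.996), *Tmem114* (0.995) and *Spata21* (0.995). For *Sox11* they were *Il11ra1* (0.994), *Plagl1* (0.991) and *Ldb2* (0.974), while *Sox4* had *Hdgfl2* (0.958), *Cdk4* (0.934) and *Cdk11b* (0.933), and *Sox12* had *Arid4b* (0.982), *Zfp397* (0.966) and *Trpm7* (0.965). *Sox5* had *Ptprs* (0.981), *Pard6g* (0.975) and *Tut4* (0.972), and *Sox13* had *Ssbp4* (0.926), *Zfp330* (0.925) and *Supt20* (0.922). For *Sox17* *Dll4*, *Cyyr1* and *Clec1a* each gave an r that rounds to 1, and for *Sox18* *Pcdh17* (0.978), *Cdh5* (0.973) and *Tmem255a* (0.971) led. The genes named for *Sox9*, *Sox8* and *Sox10* were all highest in Sertoli-like cells, and those for *Sox17* and *Sox18* in endothelial-like cells. Their r thus rest largely on 1 high class and do not single out partners among the genes of that class. Between members, r was 0.96 for *Sox9* with *Sox8*, 0.99 for *Sox8* with *Sox10* and 0.95 for *Sox17* with *Sox18*, each set by 1 high class, and 0.88 for *Sox12* with *Sox5*.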

How the data were processed

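The deposited values are raw UMI counts of genes by barcode, produced by the authors by running Cell Ranger against mm10 extended by the YFP reporter. The submitters' processing notes name versions 3.0.2 and 3.1.0, the matrix header 3.1.0 and the methods a later one. Whether counting used strand is not given in the sources used here. Annotated genes lie on the opposite strand of the members *Sox8*, *Sox4*, *Sox5* and *Sox17* and of *Sox6*, *Sox15* and *Sox21*. On their own strand, *Sox5*, *Sox1* and *Sox2* overlap annotated genes that are not in the matrix. The part of reads from overlapping genes in these counts was not tested.

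Barcodes with fewer than 200 genes (372) were removed, then 204 by the share of artificial doublets (25% of the merged data) among nearest neighbours (2% of it), at a rate of 4.04%, and 1032 as outliers, more than 3 median absolute deviations off in UMIs or genes (log scale), in ribosomal-protein RNA or, on the high side, in mitochondrial RNA. The kept 3813 cells, of 2260 to 53807 UMIs, were clustered with Seurat 5.3.0 and sctransform 0.4.2 in R 4.3.3 on 3000 variable genes without SOX genes and 30 components, at resolution 0.8, after regression on cell cycle scores and on the share of mitochondrial RNA. A cluster was named at a mean log2 ratio of its markers of at least 1 (5 CPM added) with at least 3 markers in at least 25% of its cells, unless it was shallow or led by other markers. Barcodes with at least 1% hemoglobin UMIs were set apart, a choice made after seeing the data. Sums, thinning and intervals were made in Python 3.11.15 with numpy 2.4.6, scipy 1.17.1 and pandas 2.3.3, the doublet score with scikit-learn 1.9.0, and tested on simulated data. Folds were taken for genes in at least 10 cells. Alternatives were other outlier limits, doublet rates, resolutions, normalization, class assignment, thinned depths and CPM added. The members and gene lists were chosen with earlier results of these data known. All members and every other SOX gene were named, with genes of the fixed lists and, for each member, the 3 genes most like it among those of at least 50 CPM in 1 class. A gene of the neural crest lists and the HMG box of a further member are not reported here.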

Additional observations from a re-analysis of the deposited data

How the results depend on the processing

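The count of members at least 2-fold higher in Sertoli-like cells was 3, and 4 with 1 CPM added or with hemoglobin-rich barcodes kept in their clusters. The count of lower members was 1 and became 2 with outliers taken at 5 deviations, without doublet removal, at a resolution of 1.2 and with hemoglobin-rich barcodes kept in their clusters (the latter chosen after seeing the data), and 3 without the outlier filter or with 1 CPM added. The share of all genes past the fold is given for the main setting alone, so the changed counts have no such share beside them. The Sertoli-like *Sox9* level was 320.4 CPM without doublet removal. Shares moved with the thinned depth by construction. At 3000 UMIs, *Sox9* was found in 58.88%, *Sox8* in 16.47% and *Sox10* in 7.126% of Sertoli-like cells, *Sox9* with *Sox8* in 9.579% and all 3 in 1.051%. At 8000 UMIs the shares were 86.58%, 42.12%, 14.53%, 36.58% and 4.803%, and without thinning 94.07%, 58.37%, 25.35%, 55.70% and 15.47%. The cause was not tested for the other values. The remaining 112 values of these results stayed inside the main interval or within 1.5 times the main count, as did 111 of the 121 values of single genes by class. Depth limits what joint detection can show for *Sox10*, and the 42 endothelial-like and 36 immune-like cells limit the precision of *Sox17* and *Sox18*. The 59 perivascular-like cells, a class whose size changed with the setting, limit that of the highest *Sox4* level.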
